A study of Mus musculus with 15 samples.

Results

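The tissue dependence of the podoplanin subset difference is described here, that is, for which genes the difference between podoplanin-positive and podoplanin-negative mesenchymal cells in lymph node was not the difference found in thymus. For every gene the subset difference (BP3-PDPN+ minus PDPN- cells) was taken in each tissue, and the interaction, the lymph node difference minus the thymus difference, was tested. Of 18718 genes tested, 714 either reversed the sign of the subset difference between tissues or had a difference of at least 1 on the log2 scale in 1 tissue only. The interaction used 12 of the 15 arrays of the series, and the other 3 arrays entered the estimate of the spread. Cells came from C57BL/6 mice aged 2 weeks. Thymus, or pooled inguinal, axillary and brachial lymph nodes, was digested with liberase and DNase I, and all populations were sorted as PDGFRβ+. The BP3-PDPN+ populations were positive for podoplanin (PDPN) and negative for BP3, and the PDPN- populations were sorted in addition as Ly51+. The lymph node also gave a BP3+PDPN+ population. Each population was measured on 3 arrays from 3 individual experiments. A thymus pool held 3 mice and a lymph node pool 10 to 11, and the effects of pool size and tissue cannot be told apart.

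Mesenchymal stromal cells surround the vessels, form the capsule and septa, and in lymph node build the reticular network on which lymphocytes move. Podoplanin is a membrane glycoprotein that marks fibroblastic cells of lymphoid organs, while PDGFRβ+ cells without it are mostly pericytes and vascular smooth muscle cells, which wrap capillaries and larger vessels. The thymus and the lymph node arise from different embryonic sites and support different lymphocytes, thymocytes in the former and mature T and B cells in the latter.

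The genes of the sorted proteins followed the labels, as the sort should give. Pdpn averaged 9.11 in thymus BP3-PDPN+ and 3.01 in thymus PDPN- cells, and 8.16 and 3.41 in the same subsets of lymph node. Enpep, which encodes Ly51, averaged 4.49 and 8.07 in thymus and 3.74 and 7.69 in lymph node, in the same order. Bst1, which encodes BP3, stayed between 2.18 and 3.30 in the 4 compared populations and averaged 8.74 in BP3+PDPN+ cells. All values are log2 RMA signals, in which a difference of 1 is a doubling of signal, and the median of the whole table was 3.80; below it a signal need not stand above background. Array medians ran from 3.77 to 3.885 except for thymus BP3-PDPN+ replicate 1, at 3.58, so counts are also given without that array. T lineage genes were higher in thymus than in lymph node, with a mean signal of 14 genes of 3.88 to 5.13 on thymus BP3-PDPN+ arrays, 5.12 to 5.57 on thymus PDPN- arrays and 3.24 to 3.40 on the lymph node arrays. The mean of 15 epithelium genes was 3.28 to 3.96, 3.75 to 4.08 and 2.87 to 2.98 in the same order. Replicate 1 of thymus BP3-PDPN+ had the lowest mean of both lists within its tissue.

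The subset difference depended on the tissue for 2381 genes, 12.7% of those tested (adjusted p under 0.05, limma; 1623, 8.67%, with a positive and 758, 4.05%, with a negative interaction). The subsets themselves differed for 4332 genes in lymph node (23.1%; 13.4% higher and 9.79% lower in BP3-PDPN+ cells) and for 5337 in thymus (28.5%; 10.3% higher and 18.2% lower). Of the interaction calls, 187 genes reversed, 0.999% of all genes tested: both tissues had a called subset difference, with opposite signs. No minimum size was set for this class, and 25 of the 187 had a difference of at least 1 in both tissues. For 244 genes (1.3%) the difference was called in lymph node with a size of at least 1, and was not called in thymus, where its 95% interval lay within -1 and 1. These are called lymph node only genes below, and 283 thymus only genes (1.51%) were defined in the same way with the tissues exchanged. A further 606 differed in size with the same sign, and 1061 met none of these definitions. Without thymus BP3-PDPN+ replicate 1, 2064 genes were called, of which 167 reversed, 227 were lymph node only and 258 thymus only. The subset difference was then called for 4821 genes in lymph node and 4463 in thymus. After cyclic loess these counts were 4898 and 4889, so the larger thymus count is not interpreted. The share of positive interactions depended on the scaling of the arrays: it was 68.2% as deposited, 56.9% after median centring, 42.2% after cyclic loess and 55.5% without that array, so the balance of directions is not interpreted. The median interaction over all genes was 0.06, and -0.04 after median centring. At the threshold, the last gene called was Gpatch2l, with an interaction of 0.67, and the first not called was Gba2, with 0.79.

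**Figure D1:**
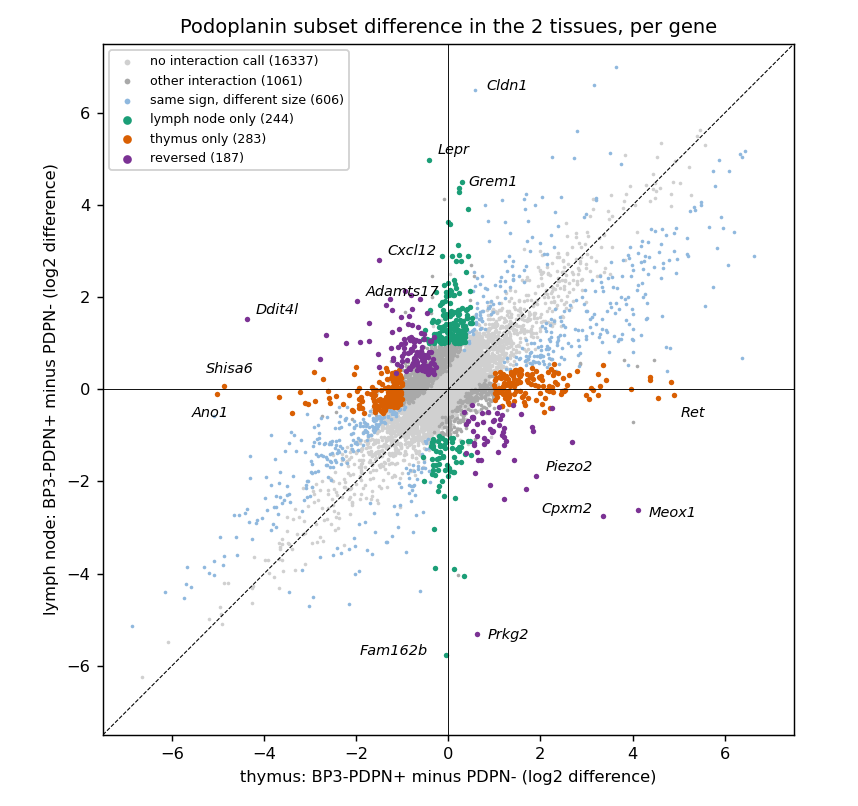
Subset difference (BP3-PDPN+ minus PDPN-, log2) in thymus on the horizontal axis and in lymph node on the vertical axis, 1 point per gene, coloured by class with the number of genes in brackets. Genes on the dashed line have equal differences; Meox1 and Cpxm2 lie far into the lower right quadrant (higher in thymus BP3-PDPN+ cells, lower in lymph node), and Ddit4l, Cxcl12 and Adamts17 in the upper left.

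Read by tissue, the interaction asks which subset differs between lymph node and thymus. Among the 2381 calls, the tissue difference was called in BP3-PDPN+ cells and not in PDPN- cells for 1228 genes, the other way round for 534, in both with opposite signs for 200, in both with the same sign for 118 and in neither for 301. The tissue difference was the larger one in BP3-PDPN+ cells for 1507 of the genes. Over all genes it was called for 3205 in BP3-PDPN+ cells (17.1%; 11.8% higher and 5.29% lower in lymph node) and for 1799 in PDPN- cells (9.61%; 4.42% higher and 5.19% lower). Without thymus BP3-PDPN+ replicate 1 these counts were 2531 and 2208, and after cyclic loess 2916 and 2178. The imbalance between the subsets thus depended on that array and on the scaling. The split of the interaction calls is given for the main fit only. For the reversed genes, opposite called tissue differences in the subsets were found for 62 of 187, against 19 of the 244 lymph node only and 30 of the 283 thymus only genes. These are the same 4 population means read along the other axis and no separate evidence.

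Among reversed genes, 54 were higher in thymus BP3-PDPN+ cells and lower in lymph node BP3-PDPN+ cells than in the PDPN- cells of the same tissue. Meox1, a homeobox transcription factor of the early somite, had the most negative interaction of all genes tested. It stood at 7.17, 7.28 and 7.41 on thymus BP3-PDPN+ arrays and at 3.20, 2.88 and 3.43 on thymus PDPN- arrays. In lymph node the order was turned, with 5.46, 4.84 and 5.04 in BP3-PDPN+ and 7.37, 8.0 and 7.84 in PDPN- cells. The arrays of the subsets did not overlap in either tissue, and thymus PDPN- was the one population below the table median. The difference was 4.12 ± 0.18 (standard error of the fit, n = 3 arrays per population, as throughout) in thymus and -2.62 ± 0.18 in lymph node, an interaction of -6.74 ± 0.26 (limma, adjusted p = 2.55e-10). The lymph node BP3+PDPN+ arrays lay between the other lymph node populations, at 6.45 to 6.62. In sorted bulk populations such as these, fewer cells of a type and less RNA per cell cannot be told apart.

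Cpxm2, which encodes a secreted protein of the carboxypeptidase family, reversed as well. Its signals were 7.23, 7.57 and 7.95 in thymus BP3-PDPN+ and 4.55, 3.88 and 4.26 in thymus PDPN- cells. In lymph node they were 2.83, 2.22 and 2.02 in BP3-PDPN+ and 5.08, 4.82 and 5.43 in PDPN- cells. Thymus BP3-PDPN+ arrays were thus the highest and lymph node BP3-PDPN+ arrays the lowest, with the PDPN- cells of both tissues between them. The subset difference was 3.35 ± 0.23 in thymus and -2.75 ± 0.23 in lymph node (interaction -6.11 ± 0.33, limma adjusted p = 4.53e-09). Between tissues the BP3-PDPN+ cells differed by -5.23 (lymph node minus thymus) and the PDPN- cells by 0.88. Meox1 and Cpxm2 stayed reversed under 6 other ways of processing the whole table and without any 1 of the 12 arrays.

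The promoters of 3 genes with large interactions are shown so that the proximal sequence can be set beside these differences. They are the 250 bases upstream of the annotated start in RefSeq on GRCm38.p6, 5′ to 3′ along the gene, with the GC box GGGCGG on either strand in capitals.
Cpxm2, chr7:132154742-132154991, minus strand: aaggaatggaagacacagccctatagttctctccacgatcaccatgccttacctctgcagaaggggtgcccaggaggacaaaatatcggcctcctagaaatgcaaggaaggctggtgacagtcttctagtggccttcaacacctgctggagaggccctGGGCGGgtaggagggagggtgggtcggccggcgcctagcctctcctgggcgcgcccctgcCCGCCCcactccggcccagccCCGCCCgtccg
Ddit4l, chr3:137623422-137623671, plus strand: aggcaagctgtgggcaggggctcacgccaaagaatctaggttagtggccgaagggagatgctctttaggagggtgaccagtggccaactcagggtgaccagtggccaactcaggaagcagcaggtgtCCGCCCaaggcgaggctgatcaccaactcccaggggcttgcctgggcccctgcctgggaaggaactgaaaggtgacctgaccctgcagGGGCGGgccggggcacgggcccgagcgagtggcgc
Cldn1, chr16:26371840-26372089, minus strand: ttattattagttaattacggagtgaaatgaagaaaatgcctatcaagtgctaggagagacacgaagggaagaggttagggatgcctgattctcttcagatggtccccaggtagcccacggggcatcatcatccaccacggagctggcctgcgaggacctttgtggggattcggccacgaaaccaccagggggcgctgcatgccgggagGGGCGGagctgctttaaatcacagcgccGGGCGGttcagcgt
Cpxm2 held 3 GC boxes and Ddit4l and Cldn1 held 2 each, and none of the 3 held TATAAA on either strand. Of 32851 windows of the same length, 32.7% held GGGCGG and 12.4% held TATAAA. The motifs do not overlap in letters, and a match or its absence is a description of these letters only. Meox1, Prkg2, Ret, Gli1 and Piezo2 had no entry in the promoter table used here.

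Piezo2, a mechanically gated cation channel, stood at 6.98, 7.52 and 7.19 in thymus BP3-PDPN+, 5.38, 5.18 and 5.41 in thymus PDPN-, 6.80, 6.67 and 6.22 in lymph node BP3-PDPN+ and 8.52, 8.49 and 8.34 in lymph node PDPN- cells. Its differences had nearly the same size and opposite signs, 1.91 ± 0.16 in thymus and -1.89 ± 0.16 in lymph node (adjusted p of the interaction 1.16e-08, limma). The adhesion molecule Cadm1 had signals of 5.05, 5.67 and 6.35 in thymus BP3-PDPN+ and 3.98, 3.97 and 4.04 in thymus PDPN- cells, against 4.87, 4.27 and 4.44 in lymph node BP3-PDPN+ and 7.06, 6.48 and 6.50 in lymph node PDPN- cells. The thymus BP3-PDPN+ arrays of Cadm1 spread over more than 1 log2 unit. The cytokine Il15, which sustains natural killer and memory T cells, was highest in thymus BP3-PDPN+ cells, at 6.81, 6.82 and 6.85, and lowest in lymph node BP3-PDPN+ cells, at 4.39, 4.0 and 4.19. The PDPN- cells lay between, at 5.90, 5.63 and 5.31 in thymus and 5.65, 5.45 and 5.12 in lymph node. Its difference was 1.21 ± 0.16 in thymus and -1.21 ± 0.16 in lymph node.

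The claudin Cldn15 was higher in BP3-PDPN+ cells of thymus (2.69 ± 0.14) and lower in those of lymph node (-1.13 ± 0.14), and the antiviral synthetase Oas1a behaved alike (1.20 ± 0.31 and -2.38 ± 0.31). The collagen VI chain Col6a4 had differences of 1.42 in thymus and -1.54 in lymph node, the zinc finger gene Zbtb7c 1.26 and -1.13, the glycosyltransferase B3gnt3 1.08 and -1.37, the immune receptor Pilra 1.22 and -1.04, and Cd300lg, a receptor of the CD300 family, 1.17 and -0.98. The rule that named the largest reversals in each direction required subset arrays without overlap in either tissue. Their lack of overlap is therefore no separate evidence. Smaller reversals in this direction came from the guidance receptor Robo1 (0.95 and -0.93), elastin, Eln (1.12 and -0.63), the collagen Col18a1 (0.98 and -0.68) and the growth factor Tgfb2 (1.10 and -0.77).

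In the opposite direction 133 genes were lower in thymus BP3-PDPN+ and higher in lymph node BP3-PDPN+ cells than in PDPN- cells. Ddit4l, an inhibitor of mTOR signalling, had the largest interaction among them. Its signals were 3.45, 2.86 and 3.00 in thymus BP3-PDPN+ and 7.74, 7.45 and 7.25 in thymus PDPN- cells. In lymph node they were 6.65, 6.64 and 5.79 in BP3-PDPN+ and 5.48, 4.39 and 4.64 in PDPN- cells. All arrays of thymus BP3-PDPN+ lay below the table median and all others above it, and the lymph node subsets were separated by a gap smaller than their spread. The differences were -4.38 ± 0.27 in thymus and 1.52 ± 0.27 in lymph node (interaction 5.90 ± 0.38, limma adjusted p = 3.75e-08).

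Cxcl12, the chemokine that holds CXCR4-bearing lymphocytes and progenitors near stroma, was the brightest of the named reversed genes in lymph node BP3-PDPN+ cells, at 10.53, 10.50 and 10.47. It stood at 7.63, 7.64 and 7.80 in lymph node PDPN- cells. In thymus it was 6.92, 7.60 and 7.40 in BP3-PDPN+ and 8.93, 8.87 and 8.66 in PDPN- cells. So in thymus the podoplanin-negative, and in lymph node the podoplanin-positive, arrays carried the higher Cxcl12 signal. The differences were -1.51 ± 0.14 and 2.81 ± 0.14 (interaction 4.32 ± 0.20, limma adjusted p = 1.49e-09), and BP3+PDPN+ cells of lymph node, at 10.00 to 10.23, were close to the BP3-PDPN+ cells there.

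Adamts17, a secreted metalloprotease, stood at 3.95, 4.38 and 5.13 in thymus BP3-PDPN+, 6.67, 6.46 and 6.29 in thymus PDPN-, 7.61, 8.19 and 7.87 in lymph node BP3-PDPN+ and 5.72, 6.17 and 6.05 in lymph node PDPN- cells. Its differences, -1.99 ± 0.24 in thymus and 1.91 ± 0.24 in lymph node, were of nearly equal size. Icosl, the ligand of the T cell costimulator ICOS, differed by -1.36 ± 0.19 and 1.83 ± 0.19, and the sphingomyelinase-like Smpdl3a by -1.72 ± 0.20 and 1.43 ± 0.20, each in the order thymus and lymph node. The same order held for the aldo-keto reductase Akr1c19 (-2.66 and 1.18), the leukotriene-cleaving peptidase Ggt5 (-1.92 and 1.03), the AMP deaminase Ampd3 (-1.22 and 1.24) and the cytoskeletal protein Kank4 (-1.72 and 1.06). Each of these kept its reversed class under the same 6 ways of processing and without any 1 of the 12 arrays. Cd52, a small surface glycoprotein abundant on lymphocytes, was called reversed (-1.23 ± 0.34 and 1.71 ± 0.34) but not without thymus BP3-PDPN+ replicate 1, with a thymus difference of -0.74, or without thymus PDPN- replicate 2, with -1.01. Cd52 averaged 6.39 in thymus and 2.73 in lymph node PDPN- cells. T lineage genes had a median thymus difference of -0.65, and the part of lymphocyte RNA in this result was not tested. Of the 14 T lineage genes only Satb1 had a called interaction, and it reversed too (-0.96 and 0.90).

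**Figure D2:**
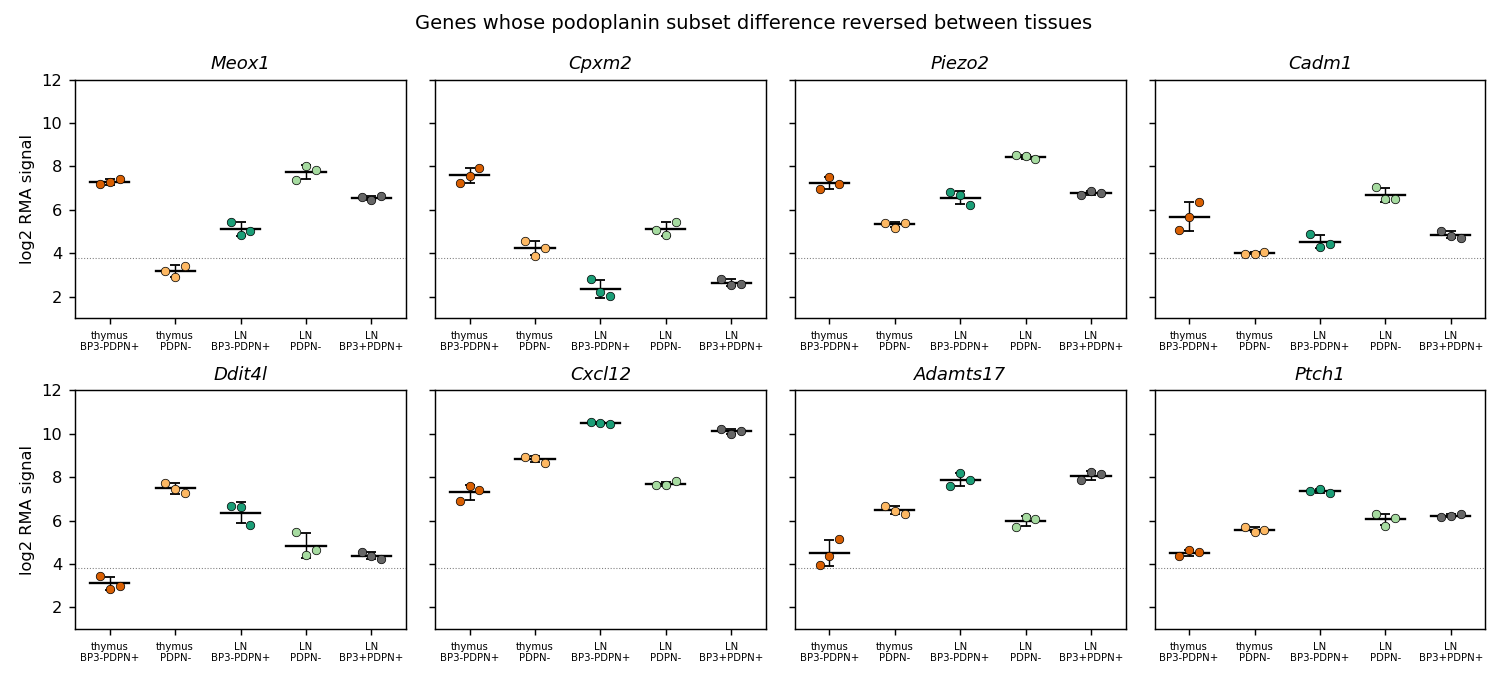
Log2 RMA signal of 8 reversed genes on every array, 1 panel per gene, with thymus BP3-PDPN+, thymus PDPN-, lymph node (LN) BP3-PDPN+, LN PDPN- and LN BP3+PDPN+ cells from left to right. Points are arrays, bars are means with 1 SD (n = 3), and the dotted line is the table median of 3.80; in Meox1, Cpxm2, Piezo2 and Cadm1 the thymus step goes down from BP3-PDPN+ to PDPN- and the lymph node step goes up, and in the lower panels the steps are the other way round.

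Prkg2, Lepr and Cldn1 were given with Meox1 and Cpxm2 as markers of the tissue dependence, from earlier results of these data, and lay near the borders between classes. Prkg2, a cGMP-dependent protein kinase, stood at 7.77, 7.48 and 7.61 in lymph node PDPN- cells, at 2.53, 2.23 and 2.19 in lymph node BP3-PDPN+ cells, at 4.74, 5.05 and 4.81 in thymus BP3-PDPN+ cells and at 4.72, 4.15 and 3.85 in thymus PDPN- cells. Lymph node PDPN- arrays stood far above all others, and in thymus the subsets were barely separated. The lymph node difference was -5.30 ± 0.18 and the thymus difference 0.63 ± 0.18 (interaction -5.93 ± 0.25, limma adjusted p = 5.28e-10). Its reversal was lost, and it became a lymph node only gene, without thymus BP3-PDPN+ replicate 2 (thymus difference 0.54) or thymus PDPN- replicate 3 (0.43).

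Lepr, the leptin receptor and a marker of perivascular reticular cells in bone marrow, stood at 8.63, 8.55 and 8.71 in lymph node BP3-PDPN+ and at 4.10, 3.17 and 3.67 in lymph node PDPN- cells. In thymus both subsets lay between these levels, at 5.50, 5.93 and 5.98 in BP3-PDPN+ and 6.32, 6.14 and 6.23 in PDPN- cells. The lymph node difference was 4.98 ± 0.18 and the thymus difference -0.43 ± 0.18, whose 95% interval ran from -0.82 to -0.04 and did not pass after adjustment. Without lymph node PDPN- replicate 1 or 2 it passed, and Lepr then counted as reversed. Between tissues Lepr rose by 2.83 in BP3-PDPN+ and fell by 2.58 in PDPN- cells.

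Cldn1, a tight-junction claudin, stood at 9.12, 9.0 and 8.90 in lymph node BP3-PDPN+ cells and below the table median in the other 3 compared populations, at 2.08 to 3.06. BP3+PDPN+ cells of lymph node had it too, at 8.62 to 8.72. Its lymph node difference, 6.51 ± 0.18, was the third largest of the table, and the thymus difference was 0.58 ± 0.18 between signals of 2.64 to 3.06 and 2.20 to 2.47. That small thymus step was called, so Cldn1 counted as different in size with the same sign. Leaving out any 1 of 4 of the thymus arrays ended that call and made it a lymph node only gene.

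Of the 244 lymph node only genes, 178 were higher and 66 lower in BP3-PDPN+ than in PDPN- cells of lymph node. Grem1, a secreted BMP antagonist of lymph node reticular cells, stood at 7.40, 7.52 and 7.12 in lymph node BP3-PDPN+ cells and at 9.60 to 9.67 in BP3+PDPN+ cells. It was below the table median in lymph node PDPN- cells, at 3.13, 3.11 and 2.91, and in both thymus subsets, at 2.89 to 3.39. The difference was 4.30 ± 0.12 in lymph node and 0.24 ± 0.12 in thymus (interaction 4.06 ± 0.17, limma adjusted p = 5.28e-10). After cyclic loess the thymus difference of Grem1, then 0.49, was called too, and the gene counted as different in size with the same sign. The desmosomal cadherin Dsc3 had a like profile, with lymph node signals of 6.17, 6.09 and 5.80 in BP3-PDPN+ and 2.36 to 2.42 in PDPN- cells, thymus signals of 2.35 to 2.84, and 10.03 to 10.22 in BP3+PDPN+ cells.

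The GABA receptor subunit Gabrg3 (4.50 in lymph node, 0.30 in thymus), the phosphodiesterase Gdpd2 (4.38 and 0.23), the proteoglycan core protein Srgn (3.59 and 0.03), the adhesion receptor Cxadr (2.89 and -0.14), the nuclear factor Tox (3.13 and 0.20), the kinase Tec (2.89 and 0.07) and the adhesion molecule Kirrel3 (2.80 and 0.17) were also higher in lymph node BP3-PDPN+ cells. Gdpd2 left the class after cyclic loess, with a called thymus difference of 0.45. The cytokine Il7, which sustains naive T cells, was higher by 1.40 ± 0.17 in lymph node, at 4.41, 4.63 and 4.41 against 2.83, 2.99 and 3.42, and reached 7.31 to 7.60 in BP3+PDPN+ cells. S100a9, a calcium-binding protein of neutrophils, was at 5.20, 6.36 and 6.23 in lymph node BP3-PDPN+ cells and at 4.43 on 1 thymus array, replicate 3 of BP3-PDPN+. It left the class in 8 of 18 other settings, and Cd14, Tyrobp and Fcer1g were called with a positive interaction too, 3 of 14 myeloid genes, although Fcer1g lost its call in 6 of 18 other settings and Tyrobp in 2. The mean of these 14 genes was 3.02 to 3.18 on lymph node BP3-PDPN+ and 2.70 to 2.71 on lymph node PDPN- arrays; the part of myeloid RNA was not tested. Cdh5, the cadherin of endothelial junctions, was higher by 2.15 ± 0.19 in lymph node, while the mean of 16 endothelium genes was 4.11 to 4.42 in BP3-PDPN+ and 3.56 to 3.95 in PDPN- cells of lymph node. In thymus that mean was 3.49 to 3.75, and the part of endothelial RNA in the Cdh5 result was not tested.

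Among genes lower in lymph node BP3-PDPN+ cells and level in thymus, Fam162b stood at 8.39, 8.71 and 8.60 in lymph node PDPN- cells and at 2.81, 2.80 and 2.76 in lymph node BP3-PDPN+ cells. Both thymus subsets were at 1.88 to 2.32, so thymus PDPN- cells lacked the signal that lymph node PDPN- cells had (interaction -5.73 ± 0.27, limma adjusted p = 1.50e-09). Il34, a ligand of the CSF1 receptor, had another pattern: 5.79, 5.58 and 5.36 in lymph node BP3-PDPN+ cells against 9.50, 9.34 and 9.52 in lymph node PDPN- and 9.06 to 9.49 in both thymus subsets. Here lymph node BP3-PDPN+ was the one low population of the 4. The phospholipase Pla1a had the pattern of Il34, with 3.78, 2.81 and 3.30 in lymph node BP3-PDPN+ and 7.22 to 7.76 in the other 3 populations. After cyclic loess Pla1a counted as reversed, with a called thymus difference of 0.59. The tetraspanin Cd82 (-3.03 in lymph node, -0.32 in thymus), the phosphodiesterase Pde2a (-2.36 and 0.14), the ion pump regulator Fxyd5 (-1.80 and 0.12) and the forkhead factor Foxc2 (-2.21 and -0.23) were lower in lymph node BP3-PDPN+ cells too. The protease inhibitor Serpina1d (-3.90 and 0.12) had the pattern of Fam162b, though its signal cannot be separated with certainty from that of its close paralogs.

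**Figure D3:**
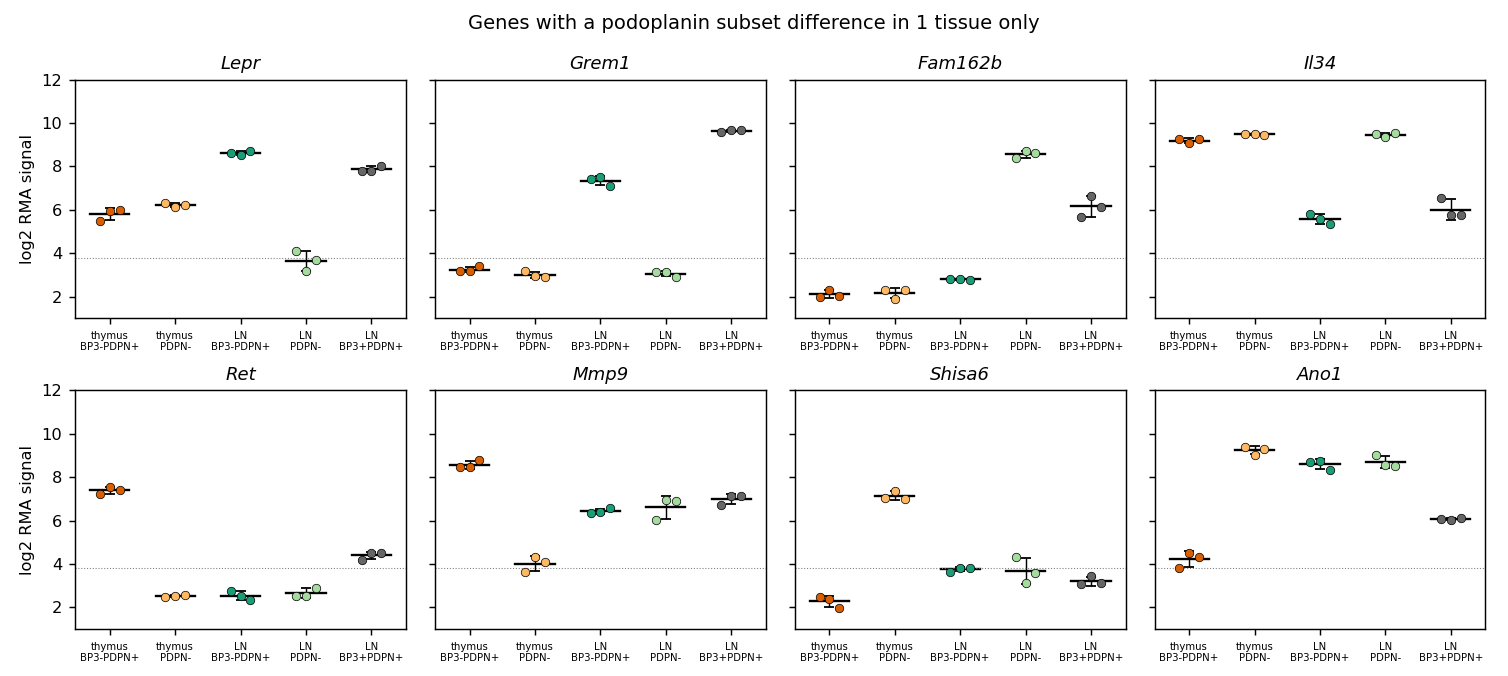
Log2 RMA signal of 8 genes with a subset difference in 1 tissue only, lymph node (LN) genes in the upper and thymus genes in the lower panels. Points are arrays, bars are means with 1 SD (n = 3), and the dotted line is the table median of 3.80; Lepr, Grem1, Fam162b and Il34 step between the LN subsets and stay nearly level in thymus, and Ret, Mmp9, Shisa6 and Ano1 do the reverse.

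Genes of Hedgehog signalling, in which the receptor Ptch1 restrains the pathway and the Gli factors transmit it, were counted as a further list. It was added after the values were seen and is no independent evidence. Of 12 measured members 4 had a positive and 0 a negative interaction, with a median of 0.41, against 8.67% positive and 4.05% negative and a median of 0.06 over all genes. Gli1 stood at 7.04, 7.27 and 6.91 in lymph node BP3-PDPN+ cells, at 4.47, 4.31 and 4.78 in lymph node PDPN- cells and at 3.73 to 4.58 in both thymus subsets. Hhip, a membrane protein that binds the ligands, stood at 6.21, 6.42 and 5.96 in lymph node BP3-PDPN+ cells and at 1.98 to 2.86 in the other 3 populations. Lymph node BP3-PDPN+ cells were therefore the one compared population above the table median for Hhip. Ptch1 was reversed, at 7.38, 7.45 and 7.27 against 6.28, 5.76 and 6.11 in lymph node and at 4.37, 4.63 and 4.53 against 5.70, 5.47 and 5.55 in thymus, BP3-PDPN+ first (differences 1.32 ± 0.13 and -1.06 ± 0.13). Gli2 differed by 1.51 ± 0.14 in lymph node and 0.16 ± 0.14 in thymus. Gli1, Gli2 and Hhip were also called in thymus after cyclic loess, and then counted as different in size with the same sign. Hhip did so in 5 of 18 other settings, among them median centring and the fits without thymus BP3-PDPN+ replicate 1 and without lymph node BP3-PDPN+ replicate 3. The ligand genes Shh, Ihh and Dhh stayed at mean signals of 2.20 to 3.16, below the table median, in all 4 populations.

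Of the 283 thymus only genes, 136 were higher and 147 lower in BP3-PDPN+ than in PDPN- cells of thymus. Ret, the receptor of glial-derived neurotrophic factors, stood at 7.24, 7.55 and 7.39 in thymus BP3-PDPN+ cells. It was below the table median in thymus PDPN- cells, at 2.46, 2.50 and 2.55, and in both compared lymph node subsets, at 2.32 to 2.90. The difference was 4.89 ± 0.14 in thymus and -0.13 ± 0.14 in lymph node, with a 95% interval of -0.42 to 0.16 (interaction -5.02 ± 0.20, limma adjusted p = 2.55e-10). The prostacyclin synthase Ptgis (4.84 in thymus, 0.15 in lymph node), the TNF receptor family member Tnfrsf19 (4.37 and 0.20), the collagen Col8a1 (4.38 and 0.28), the chemokine Cxcl14 (3.05 and -0.21), the repulsive guidance cue Sema3a (3.14 and -0.02), the teneurin Tenm4 (3.25 and -0.13) and the serine protease homologue Prss35 (3.43 and 0.19) had the pattern of Ret, with both lymph node subsets below the table median.

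Mmp9, a gelatinase, had a different pattern: 8.45, 8.47 and 8.77 in thymus BP3-PDPN+, 3.63, 4.34 and 4.07 in thymus PDPN-, and 6.01 to 6.93 in both lymph node subsets. The lymph node cells thus lay between the thymus subsets (differences 4.55 ± 0.22 in thymus and -0.18 ± 0.22 in lymph node). Plscr1, a phospholipid scramblase (3.98 and 0.01), and Sulf1, which removes sulfate groups from heparan sulfate (3.30 and 0.07), were intermediate in lymph node in the same way. The transcription factor Wt1 stood at 5.86, 6.24 and 5.88 in thymus BP3-PDPN+ cells and at 2.67 to 3.15 in the others. It belongs to a list of mesothelium genes, of which 3 of 7 had a negative interaction, Wt1, Upk3b and Lrrn4, against 4.05% of all genes. Wt1 alone of the 7 had a mean above the table median in any of the 4 compared populations. The mean of those 7 was 3.20 to 3.48 on thymus BP3-PDPN+ arrays and 2.44 to 2.64 on the others, and the defining gene Msln averaged 2.73 in both thymus subsets, below the table median.

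Lower in thymus BP3-PDPN+ cells were Shisa6, a membrane protein known from synapses, and the chloride channel Ano1. Shisa6 stood at 2.47, 2.36 and 1.97 in thymus BP3-PDPN+ and at 7.05, 7.37 and 6.98 in thymus PDPN- cells, and at 3.10 to 4.31 in both lymph node subsets. Thymus PDPN- was its one high population (differences -4.87 ± 0.23 in thymus and 0.08 ± 0.23 in lymph node). Ano1 stood at 3.81, 4.50 and 4.34 in thymus BP3-PDPN+ cells and was high in the other 3, at 9.41, 9.03 and 9.28 in thymus PDPN- and 8.35 to 9.03 in lymph node. Its differences were -5.02 ± 0.18 and -0.10 ± 0.18 (interaction 4.93 ± 0.26, limma adjusted p = 3.19e-09). The semaphorin Sema5b (-3.68 and -0.17), the helix-loop-helix protein Id4 (-2.91 and 0.38), the caveolar protein Cavin2 (-2.72 and 0.23), the N-myc downstream-regulated gene Ndrg2 (-2.61 and -0.04) and the adhesive plasma and matrix protein Vtn (-3.11 and -0.29) were low in thymus BP3-PDPN+ cells alone among the 4 populations, as Ano1 was. The sialomucin Emcn (-3.21 and -0.05), the osteoblast factor Sp7 (-3.04 and -0.31) and the calcium channel Cacna1h (-2.89 and -0.26) were highest in thymus PDPN- cells, as Shisa6 was. Id4 counted as reversed in 3 other settings, among them the fit on 12 arrays, because its lymph node difference was then called.

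Angpt2, Fndc1 and Masp1 had interactions of similar size but were called in both tissues with the same sign, and their lymph node calls depended on single arrays. Angpt2, the angiopoietin that loosens vessels, was low in thymus BP3-PDPN+ cells, at 3.23, 3.78 and 3.11, and stood at 8.08 to 9.03 in the other 3 populations (differences -5.09 ± 0.17 in thymus and -0.57 ± 0.17 in lymph node). Its lymph node call was lost without lymph node PDPN- replicate 1 or any 1 lymph node BP3-PDPN+ array. Fndc1, a fibronectin type III protein, was low in thymus PDPN- cells, at 2.74, 3.30 and 3.40, and stood at 7.05 to 9.73 in the other 3 (6.37 ± 0.19 and 0.68 ± 0.19), and lost its lymph node call without lymph node PDPN- replicate 3 or BP3-PDPN+ replicate 1. The complement protease Masp1 was high in thymus BP3-PDPN+ cells, at 7.0 to 7.09, and at 2.21 to 2.93 in the others (4.75 ± 0.11 and 0.40 ± 0.11), and lost its lymph node call without lymph node PDPN- replicate 2 or BP3-PDPN+ replicate 3.

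Gene lists were counted against 8.67% of all genes with a positive and 4.05% with a negative interaction. All list counts, the Hedgehog list included, are for the values as deposited. After cyclic loess 871 interactions over all genes were positive and 1193 negative, so these background shares depend on the scaling. They were written with earlier results of these data known and received no test of their own. Of 25 genes of pericytes and vascular smooth muscle, 14 had a positive and 3 a negative interaction (median 1.04), and all 17 differed in size with the same sign. The subset differences were smaller in lymph node for Rgs5, a regulator of G protein signals (-4.65 in thymus and -2.72 in lymph node), the potassium channel Kcnj8 (-3.54 and -1.34), its partner Abcc9 (-2.24 and -0.63) and Higd1b (-5.69 and -4.22). The smooth muscle actin Actg2 was the other way round (-1.59 and -3.10). Adventitial fibroblast genes had 0 positive and 14 negative interactions among 18 (median -1.41): Pi16 differed by 6.64 in thymus and 2.90 in lymph node, Dpt by 5.58 and 1.81, Lum by 6.20 and 3.41 and Dcn by 3.84 and 1.95. Interstitial collagen and matrix genes had 0 positive and 15 negative among 23 (median -0.81), such as Mfap5 (5.74 and 2.23), Vcan (6.07 and 2.71) and Col12a1 (3.50 and 0.81), with Eln reversed. The 14 positive pericyte genes and the 14 negative adventitial genes all had the larger subset difference in thymus.

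**Figure D4:**
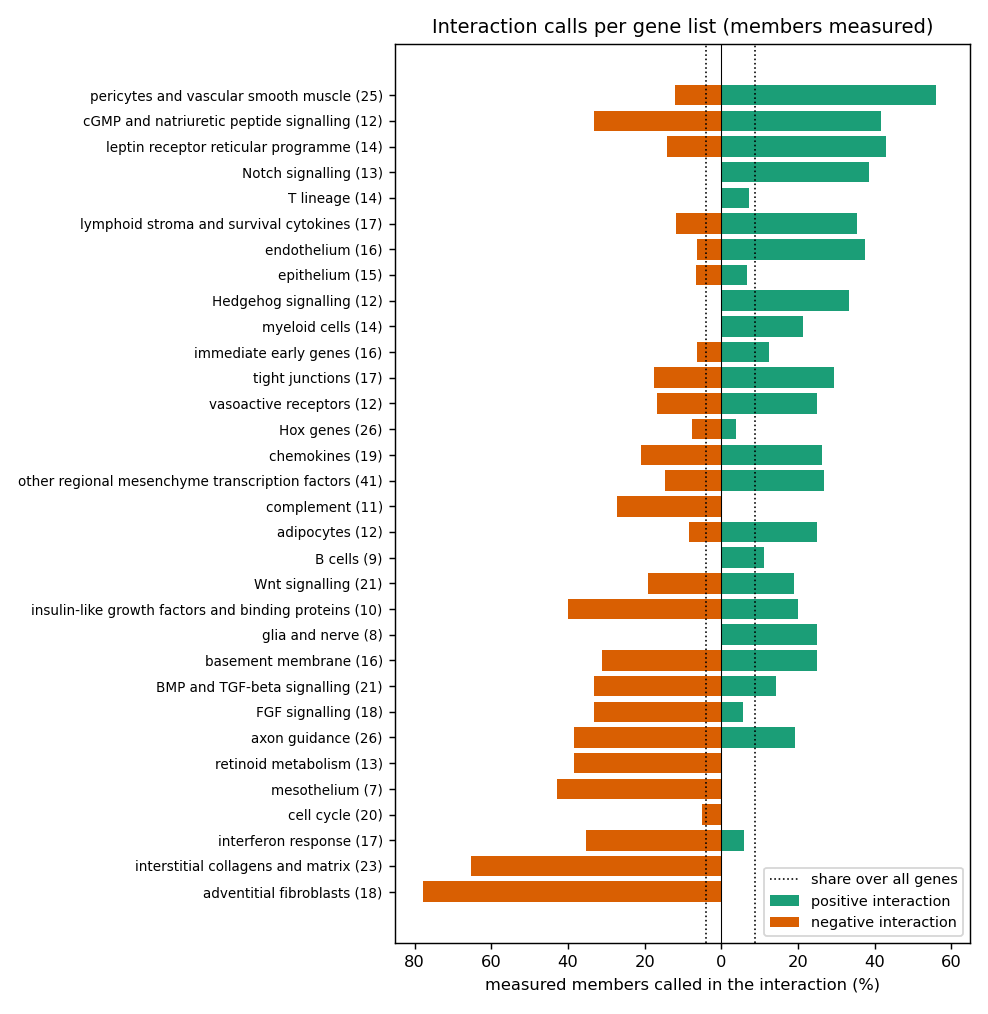
Share of the measured members of each gene list (number in brackets) with a called interaction, positive to the right and negative to the left, lists ordered by their median interaction. Dotted lines are the shares over all genes tested, 8.67% and 4.05%; the Hedgehog list was added after the values were seen, and pericyte and adventitial lists lie at the opposite ends.

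Signals between stroma and lymphocytes moved in both directions. Of 17 lymphoid stroma and survival cytokine genes 6 had a positive and 2 a negative interaction (median 0.46), among them Cxcl12, Grem1 and Il7 as above and the chemokine Ccl19 (0.93 in thymus and 1.92 in lymph node), with the adhesion molecule Vcam1 (2.15 and 0.94) and Nfkb2 negative. Of 14 genes of the leptin receptor reticular programme 6 were positive and 2 negative (median 0.70): the factors Ebf3 (-0.89 and 0.65) and Cebpa (-0.60 and 0.77) reversed along with Cxcl12, the lipase Lpl was positive (2.00 and 3.18), and Bmp4 (4.01 and 1.07) and Foxc2 were negative. Cebpa no longer counted as reversed after cyclic loess, with a thymus difference of -0.35. Chemokines were 5 positive and 4 negative among 19. Negative ones were Cxcl14, Ccl7, Ackr3 and Cx3cl1, which was thymus only (3.25 and 0.33), and positive ones Cxcl12, Ccl19 and Ccl9 as well as Cxcl5 (2.03 and 4.17) and Cxcl16 (1.41 and 2.80), which differed more in lymph node. Complement genes were 0 positive and 3 negative among 11, Masp1, Cd55 and Cfb. Interferon response genes were 1 positive and 6 negative among 17 (median -0.67): Irf7 (-0.07 and -1.27) and Isg15 (-0.34 and -1.22) were lymph node only and lower in BP3-PDPN+ cells, and Usp18 was positive. Isg15 was also called in thymus in 2 of 18 other settings, one of them the fit on the 12 arrays.

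Among growth factor pathways, BMP and TGF-beta genes were 3 positive and 7 negative of 21, with the BMP antagonist Chrdl1 positive (0.79 in thymus and 4.0 in lymph node) beside Grem1 and Bmp3, and the activin subunit Inhba lymph node only and lower in BP3-PDPN+ cells (0.24 and -1.35). Inhba counted as reversed after cyclic loess and without thymus PDPN- replicate 1. FGF genes were 1 positive (Fgf7) and 6 negative of 18, with Fgf16 (1.25 and 0.10) and its pathway's transcription factor Etv4 (1.19 and -0.09) thymus only, and the inhibitor Spry4 negative (-1.12 and -2.70). Wnt genes were 4 positive (Wnt2b, Rspo1, Fzd4 and Nkd1) and 4 negative (Wnt2, Sfrp2, Sfrp4 and Dkk2) of 21. The secreted inhibitor Sfrp4 differed by 5.84 in thymus and 3.08 in lymph node, and the Wnt enhancer Rspo1 by 1.14 and 2.44. Notch genes were 5 positive and 0 negative of 13 (median 0.69): Heyl (-2.82 and -0.78), Jag1 (-2.22 and -0.62), Notch3 (-3.46 and -2.27) and Hey1 (-2.10 and -1.30) were less different in lymph node, and Hes1 was thymus only (-1.39 and -0.39). Hes1 lost its call without thymus BP3-PDPN+ replicate 1, thymus PDPN- replicate 1, lymph node PDPN- replicate 2 or lymph node BP3-PDPN+ replicate 2, and Hey1 after cyclic loess. Insulin-like growth factor genes were 2 positive (Igf1r and Igfbp4) and 4 negative (Igf2, Igf2r, Igfbp2 and Igfbp6) of 10, with Igf2 at 1.98 and 0.74. The call of Igf1r was lost in 12 of 18 other settings and that of Igfbp2 in 4, each without 1 array (thymus BP3-PDPN+ replicate 2, thymus PDPN- replicate 1, lymph node PDPN- replicate 3 or lymph node BP3-PDPN+ replicate 3).

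In the signalling of vascular tone, cGMP genes were 5 positive (Gucy1a1, Gucy1a2, Gucy1b1, Pde3a and Pde1a) and 4 negative (Prkg1, Prkg2, Npr1 and Npr2) of 12. The soluble guanylate cyclase subunit Gucy1a1 differed by -3.85 in thymus and -0.98 in lymph node, while Prkg2 had the opposite order. The natriuretic peptide receptor Npr2 was higher in BP3-PDPN+ cells of both tissues (4.36 and 2.87). Vasoactive receptors were 3 positive and 2 negative of 12, with the angiotensin receptors Agtr2 (3.65 and 7.01) and Agtr1a and the neuropeptide Y receptor Npy1r positive, and Ptger3 and P2ry14 negative. P2ry14 lost its call in 10 of 18 other settings, and Agtr1a and Npy1r in 6 each, cyclic loess among them. Tight junction genes were 5 positive and 3 negative of 17, namely Cldn1, Cldn10, Cldn12, Tjp1 and F11r against Cldn3, Cldn15 and Jam2. Cldn12 (-0.95 and 0.79) reversed in the direction opposite to Cldn15. Basement membrane genes were 4 positive (Lama5, Agrn, Col4a2 and Lamb2) and 5 negative (Col18a1, Lama2, Lamb1, Lamc1 and Lamc3) of 16, with the laminin Lama5 lower in thymus BP3-PDPN+ cells (-3.39 and -0.51), although it left the thymus only class in 6 of 18 other settings. Axon guidance genes were 5 positive and 10 negative of 26. The positive ones were Sema3b, Sema3f, Efna1, Nrp1 and Nrp2, and the negative ones held the ephrins Efna5, thymus only (2.61 and 0.31), and Efnb2, lymph node only (-0.26 and -1.64).

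Retinoid genes were 0 positive and 5 negative of 13: the retinaldehyde dehydrogenases Aldh1a1 (3.77 in thymus and 1.20 in lymph node) and Aldh1a3 (2.27 and 0.83), the retinol dehydrogenase Rdh10, thymus only (1.91 and -0.22), the receptor Rarb and the reductase Dhrs3, which lost its reversed class in 8 of 18 other settings. Regional mesenchyme transcription factors outside the Hox clusters were 11 positive and 6 negative of 41. Meox2, the paralog of Meox1, reversed in the opposite direction to it, at 7.94, 8.14 and 8.09 against 9.11, 8.51 and 8.80 in thymus and 9.68, 9.83 and 9.76 against 8.99, 8.87 and 8.57 in lymph node, BP3-PDPN+ first. Its arrays did not overlap in either tissue (differences -0.75 ± 0.14 and 0.95 ± 0.14, interaction 1.70 ± 0.20, limma adjusted p = 3.17e-05). Tbx2 was negative (-1.93 and -3.94), and Osr1 positive (2.80 and 5.61). Hox genes were 1 and 2 of 26, with Hoxa2 lower in thymus BP3-PDPN+ cells (-1.60 and -0.31) and Hoxb5 and Hoxb6 negative. The positive share was 3.85% against 8.67% over all genes, and the negative share 7.69% against 4.05%. Hoxb6 lost its call without 6 of the 12 arrays, each left out alone, and Hoxb5 without lymph node BP3-PDPN+ replicate 2.

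Lists of other states and cell types had 0 to 6 positive and 0 to 3 negative members. Cell cycle genes were 0 positive and 1 negative of 20 (Plk1), immediate early genes 2 (Nr4a1 and Egr2) and 1 (Klf4) of 16, and adipocyte genes 3 (Lpl, Lipe and Pnpla2) and 1 (Scd1) of 12. Pnpla2 lost its call in 13 of 18 other settings, Egr2 in 11 and Lipe after cyclic loess. The nuclear receptor Nr4a1 was thymus only (-1.87 and -0.25). T lineage genes were 1 and 0 of 14 (Satb1), B cell genes 1 and 0 of 9 (Ebf1, which mesenchyme also expresses), epithelium genes 1 and 1 of 15 (Psmb11 and Cldn3), glia and nerve genes 2 and 0 of 8 (S100b and Prph) and red blood cell genes 0 and 0 of 3. Call counts do not show a shift of a whole list. The median interaction was 0.63 for T lineage, 0.41 for epithelium and -0.49 for cell cycle genes, against 0.06 over all genes. In thymus, 5 T lineage genes were called lower and 0 higher in BP3-PDPN+ cells, and 4 epithelium genes lower and 2 higher. The part of thymocyte and epithelial RNA in the interactions was not tested. The positive share was 25.0% for adipocyte and for glia and nerve genes, against 8.67% over all genes, from 3 and 2 genes. Endothelium genes were 6 and 1 of 16, a positive share of 37.5%, with Cdh5 lymph node only, Emcn thymus only and Eng negative. Prox1 lost its call in 9 of 18 other settings, Erg in 7 and Eng in 4. Pecam1, a defining endothelial marker, averaged 5.36 in lymph node BP3-PDPN+, 4.32 in lymph node PDPN- and 3.32 to 3.40 in thymus cells.

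The BP3+PDPN+ cells of lymph node, which the interaction does not use, gave a further view of the podoplanin-positive side. For lymph node only genes lower in BP3-PDPN+ cells, the BP3+PDPN+ mean was nearer to BP3-PDPN+ than to PDPN- cells in 49 of 66, and for those higher in 113 of 178. Over all genes called in the lymph node subset difference these shares were 73.1% of 1832 and 65.4% of 2500, so the lymph node only genes, at 74.2% and 63.5%, lay near the background. For reversed genes they were 23 of 54 (42.6%) and 73 of 133 (54.9%). The BP3+PDPN+ mean lay between the other lymph node populations for 18 of these 54 and 57 of these 133. It lay above both for 23 and 41, and below both for 13 and 35. Over all called genes it lay between them for 862 of 1832 and 1271 of 2500. No minimum size was set for reversed or for all called genes, so nearness can rest on small differences. The lower shares of reversed genes are therefore not interpreted. Cpxm2, Cxcl12 and Adamts17 were near BP3-PDPN+ cells in BP3+PDPN+ cells, whereas Ddit4l, at 4.23 to 4.56, was nearer to lymph node PDPN- cells. B3gnt3 was higher in BP3+PDPN+ cells, at 5.44 to 5.90, than in either other lymph node population. The difference between the nearness shares was not tested.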

How the data were processed

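RNA from 15 sorted pools was amplified by whole transcriptome amplification (Ovation Pico WTA System V2) and hybridised to Mouse Gene 1.1 ST arrays, per the labels' protocols. The authors deposited log2 signals made by RMA in the Affymetrix Expression Console, per the submitters' processing notes, with versions not given in the sources used here. Base 2 is not named there and was inferred from the range, 1.07 to 12.07. Of 24758 transcript clusters, 20844 had 1 gene symbol in the array annotation, 1735 several and 2179 none. For 1230 genes with more than 1 cluster, that with the highest mean over 15 arrays was kept, leaving 18718 genes; no filter on low values was applied. Of these, 18694 were found in the RefSeq gene table by identifier and 0 symbols changed.

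With limma 3.58.1 in R 4.3.3, population means were fitted on all 15 arrays, with empirical Bayes moderation without a trend (prior degrees of freedom 5.50, residual 10). P-values were adjusted by Benjamini-Hochberg over all genes, with a threshold of 0.05. The fit was tested on simulated data with noise drawn independently for each gene and array. Shifts of whole single arrays were not part of it, so that test does not bear on them. The median standard error of the interaction was 0.20, and the number of arrays limits the precision. P-values measure the spread between the pools. No array duplicated another (0 identical).

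Alternatives were the 12 arrays alone, a trended robust prior, cyclic loess, median centring, the mean of all clusters of a gene, a replicate block (these 6 keep every gene), a filter on low values, stricter thresholds and leaving out each of 12 arrays in turn.

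The markers, the 34 gene lists and the rule for naming genes were chosen with earlier results of these data known, and the Hedgehog list and the comparison with BP3+PDPN+ cells were added after the values were seen. The rule took, in each class and direction, the 12 genes with the largest effect whose arrays did not overlap, the 4 largest same-sign interactions of each kind, up to 5 members of each list with at least 3 calls, the sort genes and the markers. Predicted genes, olfactory, vomeronasal and pheromone genes, small RNAs and antigen receptor segments were counted and not named. Other list members named were chosen after their values were seen.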

Additional observations from a re-analysis of the deposited data

Results flagged for a closer look

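The subset difference differed between lymph node and thymus, by the test of that difference itself, for 2381 genes. Among the named genes the 6 largest positive interactions were those of Cldn1 (5.93), Ddit4l (5.90), Lepr (5.41), Shisa6 (4.94), Ano1 (4.93) and Angpt2 (4.52). The 6 largest negative ones were those of Meox1 (-6.74), Cpxm2 (-6.11), Prkg2 (-5.93), Fam162b (-5.73), Fndc1 (-5.69) and Ret (-5.02). Each of these 12 was called without any 1 of the 12 arrays of the interaction and kept its sign. They were picked as the largest in the same arrays, so this is no separate evidence. Populations of 3 arrays are too small for a formal test of single arrays that stand apart. Thymus BP3-PDPN+ replicate 1 had the lowest array median, 3.58, and counts without it are given above.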

How the results depend on the processing

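Counts of interaction calls were 1966 to 2381 under the other ways of processing, the filter on low values included, and 1752 to 2676 with 1 array left out. With 1 array left out, reversed genes were 128 to 226, lymph node only genes 218 to 286 and thymus only genes 247 to 347. Under the other ways of processing they were 154 to 188, 174 to 250 and 198 to 294, the lowest lymph node only and thymus only counts with the filter. After cyclic loess 871 interactions were positive and 1193 negative. At an adjusted p of 0.01, 1295 interactions were called (765 positive), 78 genes reversed, and tissue differences were called for 1930 genes in BP3-PDPN+ and 1064 in PDPN- cells. Tested against a size of 1 (treat), 250 interactions passed, 109 positive and 141 negative. With a bound of 0.7 in the other tissue, 188 genes were lymph node only and 218 thymus only.

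Whether a replicate number marks the same experiment across populations is not stated in the labels. In deviations from the population means, the 18 same-number pairs of arrays correlated at -0.17 to 0.29, with 5 over 0.1. The 36 different-number pairs correlated at -0.31 to 0.22, with 9 over 0.1. These ranges overlap, so the correlations cannot decide whether the arrays were paired. A replicate block gave 2357 interaction calls, 182 reversed, 241 lymph node only and 283 thymus only genes. Among genes named in the text, Igf1r and Pnpla2 were not called with the block (adjusted p = 0.0582 and 0.0567, limma), Hhip, Isg15 and P2ry14 became same-sign genes, and Dhrs3 no longer reversed.

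No interaction of the 714 genes changed sign under the 6 ways of processing that keep every gene or with 1 array left out. These genes were selected by their interaction call in the same arrays, so the kept sign is no separate evidence. Of the reversed genes 95 of 187 kept their class under all 6 ways of processing that keep every gene and 78 without any 1 array; for lymph node only genes these were 141 and 132 of 244, and for thymus only genes 192 and 157 of 283. Class membership therefore depended on the setting. Of the named genes' results under alternatives, 3663 stayed on the same side of the threshold, 115 lost the call and 3 gained it. Signals below 3.80, the table median, may not stand above background, which limits small differences there.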
